A study of Gallus gallus with 71 samples.

Results

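GNAI1 (ENSGALG00010008407) encodes an inhibitory G protein alpha subunit, and ADCY9 (ENSGALG00010016544) encodes adenylyl cyclase 9. They were selected, as 2 of the 30108 genes counted, because the study listed both among the genes that differed between embryonic heat conditioned (EHC) and control chicks in the nCPa at hour 12, GNAI1 as lower and ADCY9 as higher. For that 1 comparison their values are therefore given as a description with no test. RefSeq placed a gene of the symbol GNAI1 on chromosome 1 at 11577337 to 11612045 and one of the symbol ADCY9 on chromosome 14 at 12596671 to 12655880 (GRCg7b). Both genes passed the filter on low counts, which kept 20363 genes, and passed it in every library and not through 1 group.

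The libraries were made from punches of 3 brain nuclei of Hubbard x Cobb-500 broiler chicks, the paraventricular nucleus (PVN), the pre-optic and anterior hypothalamic area (POAH) and the hippocampal commissure nucleus (nCPa). Control eggs were kept at 37.5 °C, and EHC eggs were kept at 39.5 °C for 12 hours a day from embryonic day 7 to 16 and otherwise at the control temperature. The study's methods put control and EHC eggs in separate incubators and grouped the chicks in cages by treatment. Treatment therefore cannot be told apart from incubator or cage. Chicks were held in a room at 30 °C, and on day 4 after hatch a heat challenge at 36 °C was begun. Brains of hour 0 were taken before it, and those of hours 2 and 12 were counted from its start. There were 71 libraries in 18 groups, with 4 libraries a group (2 female and 2 male chicks) except EHC PVN at hour 12 with 3 (1 female and 2 male). Hours 0, 2 and 12 were different chicks. The study's methods state that the 3 nuclei came from the same chicks, and no label gives the chick behind a library. Since all chicks at hours 2 and 12 were challenged, time after the start of heat cannot be told apart from age and time of day.

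Inhibitory G proteins are released by receptors such as those for opioids, somatostatin, melatonin and alpha2-adrenergic agonists. Their alpha subunit lowers the activity of several adenylyl cyclases, the enzymes that make the second messenger cyclic AMP from ATP, and stimulatory G proteins raise it. Adenylyl cyclase 9 is a membrane-bound and widely expressed member of that enzyme family, and it is known for its low sensitivity to forskolin. In the hypothalamus cyclic AMP is used by receptors of hormones and neuropeptides that act on feeding, stress and body temperature. The counts measured messenger RNA of the 2 genes, and neither the proteins nor cyclic AMP.

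Total counts ran from 910033 to 9370799 per library (median 4157783). GNAI1 had 109 to 1675 counts in a library and ADCY9 at most 1356, and levels are given as CPM, counts scaled to library size after TMM normalization. There were 5 libraries at hour 2 (Sample_67, Sample_68 and Sample_69 of EHC chicks, Sample_70 and Sample_72 of controls) whose expression of 50 female-limited genes went against their sex label, so the fits with hour 2 were repeated without them, and neither gene passed the test in any of these. Sample_67, Sample_68 and Sample_69, labelled male, had 1879, 1698 and 1390 CPM of these genes in sum. Sample_70 and Sample_72, labelled female, had 9.1 and 10.5 CPM. Sample_71, a control nCPa library labelled female and numbered between them, had 1238 CPM and was kept. Whether the treatment or chick of these libraries is also mislabelled was not tested. Mitochondrial mRNAs here are only the 11 that the study names, which are ND1 to ND6, COX1, COX2, CYTB, ATP6 and ATP8. Any others encoded by the mitochondrial genome are not in the shares and were not left out in the alternatives. In the nCPa at hour 12, these 11 mRNAs took 0.919% to 6.82% of the counts in controls (above 4% in 3 of 4 libraries) and 1.18% to 1.86% in EHC chicks. Markers of cell types or of the nuclei could not be checked, since the files name genes by Ensembl ID and no table with symbols for them was at hand. The levels of GNAI1 and ADCY9 are not compared with each other, because CPM is not scaled for transcript length.

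The lowest group of GNAI1 among the 18 was EHC nCPa at hour 12. In these 4 libraries GNAI1 stood at 56.3, 58.4, 60.6 and 87.6 CPM, from 154, 109, 221 and 298 counts. In the 4 control libraries of the same nucleus and hour it stood at 161.1, 165.4, 188.97 and 220.9 CPM. The groups did not overlap, and the means were 65.7 ± 14.7 CPM (SD, n = 4) and 184.1 ± 27.4 CPM (SD, n = 4). Of all genes tested, 3.92% had every EHC library below every control library in this comparison, which is the comparison that chose the gene, so nothing is read from that share. The fitted log2 fold change was -1.50 (SE 0.19, 95% interval -1.92 to -1.08), about 0.354 of the control level. In punches of tissue, fewer cells of a type that carries the mRNA and less mRNA per cell cannot be told apart. The EHC libraries of this comparison were also shallower (1956211 to 3401717 counts, against 4681626 to 5130983 in controls) and lacked the high mitochondrial share of 3 control libraries. With the mitochondrial mRNAs left out the log2 fold change of GNAI1 was -1.50, which takes out only their counts. The control library with a mitochondrial share of 0.919% had GNAI1 at 161.1 CPM, the lowest of the 4 controls. The parts of depth and of whatever else differs with the mitochondrial share were not tested.

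GNAI1 in the nCPa was not low before hour 12. At hour 0 its libraries ran at 136.03, 143.5, 177.8 and 204.9 CPM in controls and at 139.9, 183.6, 196.7 and 216.3 CPM in EHC chicks. At hour 2 they ran at 129.5, 173.8, 175.4 and 185.6 CPM in controls and at 134.7, 142.3, 174.96 and 248.4 CPM in EHC chicks. Both pairs of groups overlapped, and the highest GNAI1 level of all 71 libraries (248.4 CPM) was in an EHC chick at hour 2 (Sample_68, 1 of the libraries against its sex label).

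ADCY9 in the nCPa at hour 12 lay in the other direction and less far apart. It stood at 149.6, 161.1, 173.2 and 193.2 CPM in EHC chicks and at 110.2, 117.3, 133.4 and 161.7 CPM in controls. The groups overlapped, since the highest control library (the one with the low mitochondrial share) was above 2 of the 4 EHC libraries. The fitted log2 fold change was 0.37 (SE 0.17, 95% interval -0.02 to 0.75), and it was 0.37 with the mitochondrial mRNAs left out. At hour 0 ADCY9 ran at 122.1, 131.8, 145.2 and 158.9 CPM in controls and at 105.5, 145.8, 148.6 and 149.5 CPM in EHC chicks. At hour 2 it ran at 126.1, 131.5, 141.3 and 152.4 CPM in controls and at 137.7, 149.8, 150.5 and 161.2 CPM in EHC chicks. ADCY9 thus overlapped between the groups at all 3 hours.

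In the POAH, 1 library carried most of the spread of GNAI1. At hour 12 GNAI1 stood at 55.7, 155.5, 158.99 and 182.5 CPM in EHC chicks and at 137.5, 155.7, 156.1 and 157.2 CPM in controls. The library at 55.7 CPM (Sample_160, replicate 3 of its group, a female, 224 GNAI1 counts of 4201544 in all) was the lowest of all 71, below the 4 EHC nCPa libraries of the same hour. The same library held the highest ADCY9 level of the POAH, 183.6 CPM. The numbers in the library names run in sets of 3 in the order POAH, nCPa and PVN, and the next number, Sample_161, is an EHC nCPa library with GNAI1 at 60.6 CPM and ADCY9 at 193.2 CPM. The POAH libraries of the other 3 EHC sets at hour 12 had GNAI1 at 155.5, 182.5 and 158.99 CPM beside nCPa libraries at 87.6, 58.4 and 56.3 CPM. Over all genes tested, the deviations of Sample_160 had an r of 0.25 with the mean of the EHC nCPa group at hour 12 and of 0.094 with the other 3 libraries of its own group. Those 3 libraries had an r of -0.16, -0.14 and 0.13 with the EHC nCPa mean. With the rest of their own group they had 0.15, 0.028 and -0.12, a range that holds 0.094. With the control POAH mean at hour 12 Sample_160 had an r of -0.14, and those 3 had 0.11, 0.37 and 0.036. The 4 EHC nCPa libraries had -0.28, -0.28, -0.039 and -0.21 with that control mean. With the rest of their own group these 4 had 0.30, 0.21, 0.15 and 0.30. The label of Sample_160 as POAH was kept, and whether it holds tissue of another nucleus was not tested. The SD of GNAI1 within the POAH groups was 0.34 on the log2 scale with it and 0.13 without it.

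In the remaining POAH groups GNAI1 lay between 131.6 and 199.00 CPM. At hour 0 it stood at 160.4, 168.8, 175.1 and 180.8 CPM in controls and at 131.6, 132.3, 134.9 and 176.9 CPM in EHC chicks. At hour 2 it stood at 175.2, 180.5, 196.2 and 197.3 CPM in controls and at 157.4, 161.1, 167.97 and 199.00 CPM in EHC chicks. At hour 0, 3 of the 4 EHC libraries lay below every control library and the fourth lay within the controls.

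ADCY9 in the POAH overlapped between EHC and control chicks at each hour. At hour 0 it was 145.95, 151.4, 152.5 and 156.3 CPM in controls and 124.8, 127.6, 151.9 and 162.6 CPM in EHC chicks. At hour 2 it was 133.2, 145.4, 153.6 and 158.9 CPM in controls and 122.7, 131.3, 156.2 and 156.4 CPM in EHC chicks. At hour 12 it was 132.4, 142.7, 155.5 and 162.8 CPM in controls and 130.5, 137.96, 158.99 and 183.6 CPM in EHC chicks. Without Sample_160 the highest EHC library at hour 12 was at 158.99 CPM.

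In the PVN no library of GNAI1 stood far from the rest, and its 23 libraries lay within a 1.48-fold range. At hour 0 GNAI1 was 153.7, 156.8, 176.2 and 199.2 CPM in controls and 166.5, 167.4, 182.9 and 186.6 CPM in EHC chicks. At hour 2 it was 138.6, 147.6, 165.3 and 174.3 CPM in controls and 146.1, 154.4, 156.8 and 173.6 CPM in EHC chicks. At hour 12, when the EHC nCPa was at its lowest, the 3 EHC PVN libraries were at 166.9, 168.1 and 180.8 CPM and the 4 control libraries at 134.2, 150.9, 159.9 and 186.04 CPM. The 3 EHC libraries lay within the range of the controls.

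ADCY9 in the PVN lay within a 1.39-fold range. At hour 0 it was 136.8, 141.2, 147.8 and 159.1 CPM in controls and 131.6, 162.6, 162.9 and 164.1 CPM in EHC chicks. At hour 2 it was 127.8, 136.1, 137.3 and 137.3 CPM in controls and 134.99, 136.5, 147.9 and 177.5 CPM in EHC chicks. At hour 12 it was 142.4, 152.03, 154.6 and 166.7 CPM in controls and 138.8, 147.8 and 148.2 CPM in EHC chicks. The highest of these, 177.5 CPM at hour 2, was Sample_69, whose sex-linked expression went against its label.

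**Figure D1:**
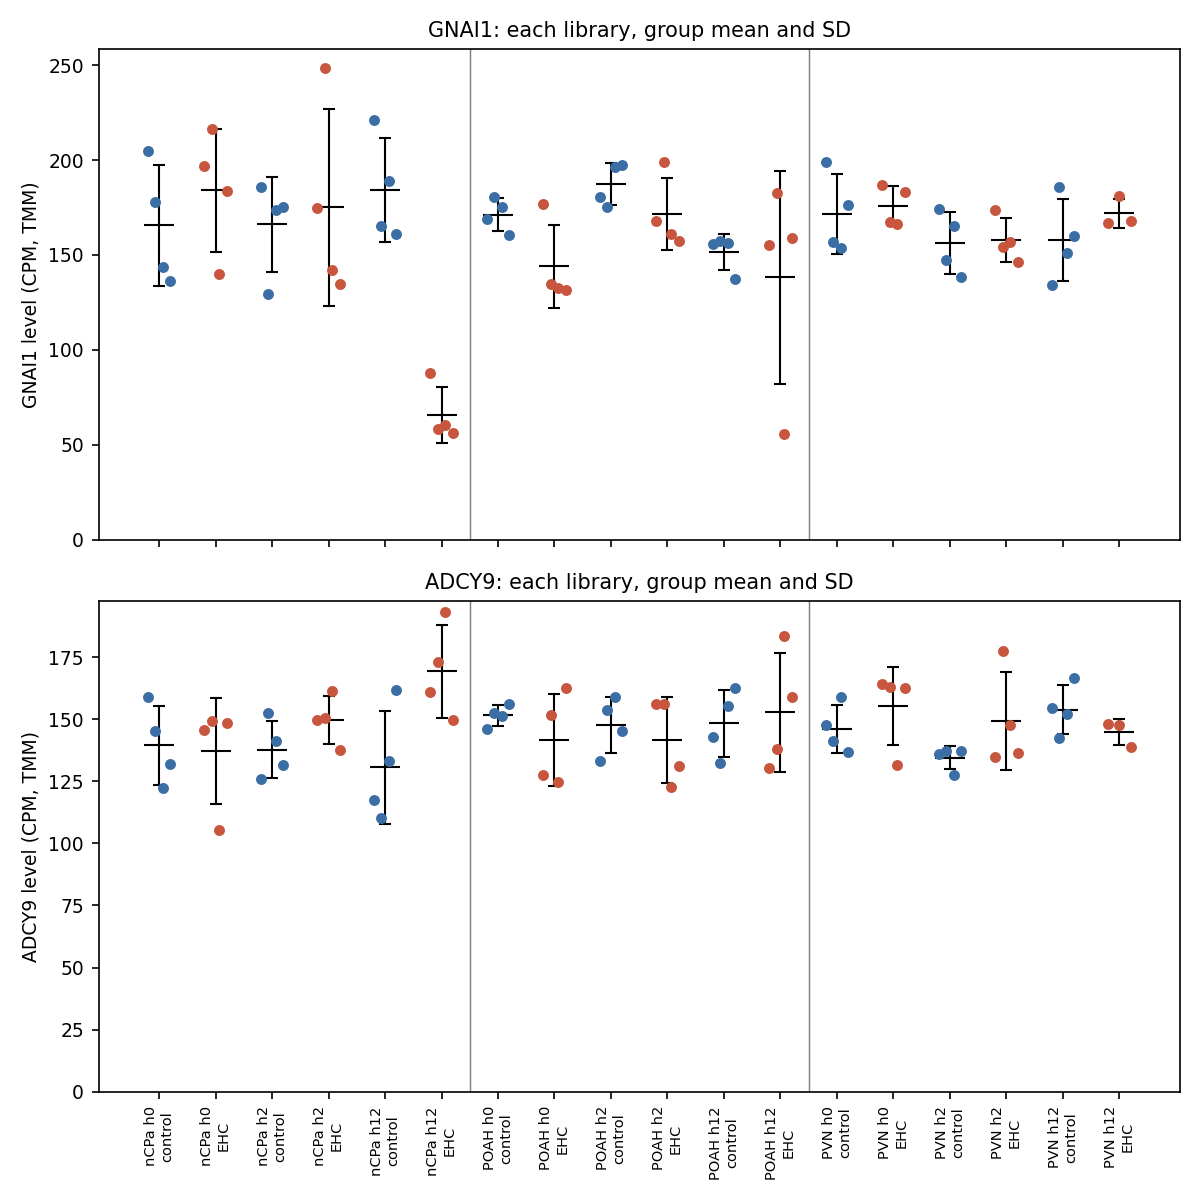
Level of GNAI1 (upper panel) and ADCY9 (lower panel) in CPM after TMM scaling, by nucleus, hour and treatment; each point is 1 library (blue control, red EHC), and the black bars are the group mean and SD. GNAI1 sits between 56.3 and 87.6 CPM in EHC nCPa at hour 12 and at 55.7 CPM in 1 EHC POAH library, and ADCY9 stays between 105.5 and 193.2 CPM.

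Ordered by group mean, GNAI1 ran from 187.3 ± 11.1 CPM (SD, n = 4) in control POAH at hour 2 down to 138.2 ± 56.3 CPM (SD, n = 4) in EHC POAH at hour 12, and then to 65.7 ± 14.7 CPM (SD, n = 4) in EHC nCPa at hour 12. Each of the first 17 group means lay within 1 SD (the larger of the pair) of the next, so neighbours in that order did not differ beyond their spread. The step from the 17th to the last was 72.4 CPM, or 1.29 times the larger SD, which is that of the group with Sample_160. Without that library, left out after its value was seen, the group stood at 165.6 ± 14.7 CPM (SD, n = 3), 11th in the order. The 17th was then EHC POAH at hour 0 at 143.9 ± 22.02 CPM, and the last step was 3.55 times the larger SD. The last group is 1 of those on which GNAI1 was chosen, so nothing is read from the size of that step. The order of ADCY9 ran from 169.3 ± 18.7 CPM (SD, n = 4) in EHC nCPa at hour 12 to 130.6 ± 22.9 CPM (SD, n = 4) in control nCPa at hour 12, with every step below 1 SD. The same pair of groups thus held the highest and the lowest ADCY9 mean, and these are the groups on which the gene was chosen. Over all libraries GNAI1 spanned 4.46-fold and ADCY9 1.83-fold. The SD within groups was 0.15 on the log2 scale for ADCY9, and only 10.1% of the 1448 genes of like level had a smaller one. For GNAI1 it was 0.27, and 57.2% of 1326 genes of like level had a smaller one. Without Sample_160 the GNAI1 value was 0.20 (30.5% of 1304 genes had a smaller one) and its span was 4.41-fold.

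Outside the comparison that chose them, neither gene passed the test between EHC and control chicks in any of the other 8 comparisons of a nucleus at 1 hour. The threshold was an edgeR quasi-likelihood p, adjusted over all genes by Benjamini and Hochberg (BH), no higher than 0.1. Fitted on the 2 groups alone, these comparisons called 0% of genes in the nCPa at hours 0 and 2, the POAH at hours 0, 2 and 12 and the PVN at hours 0 and 2, and 0.25% (51 genes) in the PVN at hour 12. These counts moved with single libraries: leaving out 1 library gave up to 61 genes in the nCPa at hour 2 (without control replicate 1), up to 91 in the POAH at hour 2 (91 without EHC replicate 4, 78 without control replicate 2 and 22 without EHC replicate 2) and up to 34 in the PVN at hour 2 (without EHC replicate 1). Without the libraries against their sex label the PVN at hour 2 had 452. They moved with the filter too. With no filter on low counts the nCPa had 0 and 763 (hours 0 and 2). The POAH then had 28, 93 and 134 and the PVN 54, 632 and 225 (hours 0, 2 and 12). Without the sex term the POAH at hour 2 had 41, the PVN at hour 12 had 44 and the others 0. In the PVN at hour 12 the count was 11 to 14 without any 1 of the EHC libraries, 58 to 82 without any 1 of the controls and 0 with all PVN libraries in 1 model. Both genes also overlapped between the groups in all 8, where 2.05% and 4.47% of genes did not overlap in the nCPa (hours 0 and 2), 2.36%, 3.94% and 2.95% in the POAH (hours 0, 2 and 12), and 2.21%, 3.58% and 10.9% in the PVN. In the 17 comparisons here and below where edgeR called no gene, 611 to 1598 genes had an unadjusted p under 0.05 and DESeq2 called 0 to 321 genes. Neither GNAI1 nor ADCY9 was called by DESeq2 in any of the 24 tested comparisons. In the comparison that chose the 2 genes, where they were not tested, edgeR called 1 gene (0.00491%) on the 2 groups alone. DESeq2 called 336 there, and edgeR 390 with all nCPa libraries in 1 model. Each count was below the number of genes that the study reported for it. With at most 4 chicks a group the 95% intervals, given next, were wide.

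For GNAI1 the log2 fold change (EHC against control) in the nCPa was 0.16 (SE 0.14, 95% interval -0.16 to 0.48, edgeR BH-adjusted p = 0.96) at hour 0. At hour 2 it was 0.08 (SE 0.23, 95% interval -0.43 to 0.58, edgeR BH-adjusted p = 0.976). It was -0.18 without Sample_68 and -0.06 without control replicate 4 (Sample_65), so its sign rested on single libraries. In the POAH at hour 0, the largest of these 8 in size, it was -0.26 (SE 0.13, 95% interval -0.56 to 0.04, edgeR BH-adjusted p = 0.989). At hour 2 in the POAH it was -0.12 (SE 0.13, 95% interval -0.41 to 0.18, edgeR BH-adjusted p = 0.873), and -0.19 without the libraries against their sex label. At hour 12 in the POAH it was -0.18 (SE 0.30, 95% interval -0.85 to 0.48, edgeR BH-adjusted p = 0.945), and 0.11 without Sample_160, so the lower mean of the EHC POAH rested on that library. In the PVN the 3 values lay between 0.03 and 0.12, with intervals from -0.25 to 0.41.

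For ADCY9 the values in the nCPa were -0.02 at hour 0 and 0.12 at hour 2, with intervals from -0.32 to 0.45. In the POAH they were -0.11, -0.05 and 0.03 at hours 0, 2 and 12, and the last was -0.09 without Sample_160. In the PVN the value at hour 2 was 0.16 (SE 0.14, 95% interval -0.14 to 0.46, edgeR BH-adjusted p = 0.835), and 0.05 without the libraries against their sex label. At hours 0 and 12 in the PVN it was 0.08 and -0.11. The 2 genes had fold changes of opposite sign in 3 of these 8 comparisons and of the same sign in 5. None of the signs passed the test.

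With the hours of a nucleus pooled (hours 0 and 2 for the nCPa), neither gene passed the test between EHC and control chicks, and edgeR called 0% of genes in each of the 3 nuclei. For GNAI1 the nCPa value was 0.10 (SE 0.13, 95% interval -0.18 to 0.38, edgeR BH-adjusted p = 0.867). It was -0.17 (SE 0.12, 95% interval -0.42 to 0.08, edgeR BH-adjusted p = 1) in the POAH and -0.09 there without Sample_160. In the PVN it was 0.05 (SE 0.06, 95% interval -0.09 to 0.18, edgeR BH-adjusted p = 1). For ADCY9 the 3 values were 0.04, -0.04 and 0.04, with intervals from -0.18 to 0.23. In the PVN, where the interval was narrowest, a change of either gene by more than 0.18 on the log2 scale lay outside it.

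The hours of the heat challenge were compared with treatment and sex as terms, without hour 12 of the nCPa. No gene passed in any of these 7 comparisons (edgeR called 0% of genes). GNAI1 in the POAH was 157.6 ± 21.3 CPM at hour 0 and 179.4 ± 16.7 CPM at hour 2 (SD over 8 libraries each), or, as a log2 fold change, 0.18 (SE 0.08, 95% interval 0.01 to 0.35, edgeR BH-adjusted p = 0.98). Its unadjusted p of 0.039, also from edgeR, was the only 1 below 0.05 among the 48 tests of the 2 genes, and without the libraries against their sex label the change was 0.14. From hour 2 to hour 12 GNAI1 in the POAH had the largest change in size of its 24 tests, -0.32 (SE 0.17, 95% interval -0.68 to 0.04, edgeR BH-adjusted p = 1), and it was -0.19 without Sample_160. From hour 0 to hour 12 the value was -0.14, and -0.01 without Sample_160. In the PVN GNAI1 was 173.7 ± 15.5 CPM at hour 0, 157.1 ± 13.1 CPM at hour 2 (n = 8 each) and 163.8 ± 17.7 CPM at hour 12 (n = 7), with log2 fold changes of -0.14, -0.08 and 0.07 for hours 2 and 12 against 0 and hour 12 against 2. For ADCY9 all 7 values lay between -0.08 and 0.07.

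Between female and male chicks the share of genes called by edgeR was 3.21% (nCPa), 8.08% (POAH) and 4.42% (PVN), and neither GNAI1 nor ADCY9 was among them. The nCPa value of ADCY9, over 12 female and 12 male libraries, was a log2 fold change of -0.09 (SE 0.08, 95% interval -0.26 to 0.07, edgeR BH-adjusted p = 0.548). Its values in the POAH and PVN were -0.05 and -0.06, so its estimate was below 0 in all 3 nuclei, none past the threshold. The nuclei share chicks, so these 3 signs are not independent. GNAI1 had log2 fold changes of -0.09, -0.08 and 0.05 in the nCPa, POAH and PVN, and the POAH value was 0.02 without Sample_160, a female. The nCPa fits hold the 8 libraries of hour 12 on which the genes were chosen. Over hours 0 and 2 alone (8 libraries a side, 1.97% of genes called) the nCPa values were -0.18 (SE 0.14, 95% interval -0.47 to 0.11, edgeR BH-adjusted p = 0.486) for GNAI1 and -0.12 (SE 0.09, 95% interval -0.31 to 0.07, edgeR BH-adjusted p = 0.49) for ADCY9. Without the libraries against their sex label ADCY9 had values of -0.10, -0.05 and -0.02.

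The fitted differences of the 2 genes between nuclei lay between -0.05 and 0.06 on the log2 scale. GNAI1 in the EHC nCPa at hour 12 was lower, at 65.7 CPM, and is not in these fits. PVN and POAH differed in 9.99% of genes, nCPa and PVN in 13.2% and nCPa and POAH in 0.0246%, and neither gene passed in any of the 3 comparisons (hour 12 left out where the nCPa entered). GNAI1 was 164.9 ± 16.3 CPM in the PVN (n = 23) and 160.6 ± 29.6 CPM in the POAH (n = 24), which on the log2 scale was 0.04 (SE 0.07, 95% interval -0.12 to 0.19, edgeR BH-adjusted p = 0.836). ADCY9 was 147.5 ± 13.02 CPM in the PVN and 147.3 ± 14.8 CPM in the POAH, which was -0.01 (SE 0.04, 95% interval -0.10 to 0.08, edgeR BH-adjusted p = 0.957). Against the POAH the nCPa had log2 fold changes of 0.04 for GNAI1 and -0.05 for ADCY9. Against the PVN it had 0.06 and -0.05. The interval for GNAI1 in the nCPa against the POAH ran from -0.14 to 0.21. These tests took the 3 punches of a chick as separate samples. With sets of 3 consecutive library numbers as a block, the genes called rose from 5 to 155 between nCPa and POAH and from 2034 to 3189 between PVN and POAH. Between nCPa and PVN they fell from 2687 to 2518. DESeq2, without the block, called 190 between nCPa and POAH. Neither member was called in any of these. The set of Sample_60 (control PVN, hour 0) held no library of another nucleus. In the set of Sample_70, Sample_71 and Sample_72 the female-limited expression was low, high and low, so 1 chick is doubtful for that set.

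**Figure D2:**
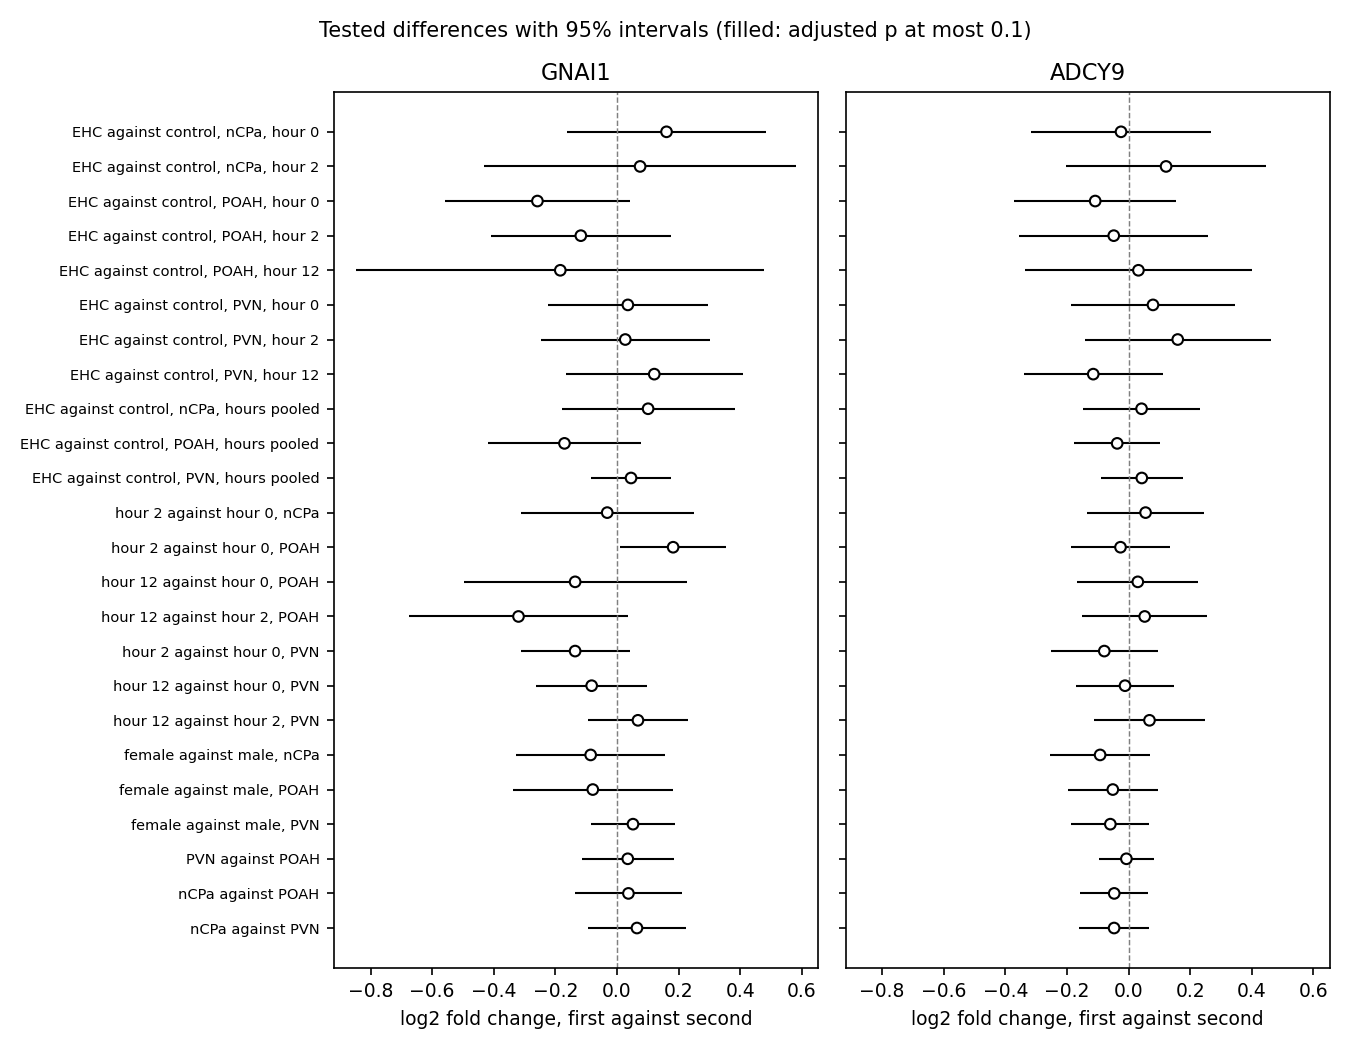
Log2 fold change (x axis) of GNAI1 (left) and ADCY9 (right) in the 24 comparisons tested with edgeR (y axis), the first group named against the second, with 95% intervals; an open circle is an adjusted p above 0.1. All circles are open, and the largest changes in size are -0.32 for GNAI1 and 0.16 for ADCY9. EHC against control in the nCPa at hour 12 is left out because it chose the genes.

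Whether GNAI1 and ADCY9 moved in opposite directions within libraries was asked on deviations of log2 CPM from the group mean, 1 nucleus at a time and without the nCPa at hour 12, with a two-sided permutation test within groups (100000 draws) and Benjamini-Hochberg adjustment over the 3 nuclei. In the nCPa at hours 0 and 2 the genes leaned the same way (r = 0.42, p = 0.118, adjusted p = 0.193; rho = 0.33, p = 0.259, adjusted p = 0.442; 16 libraries). The signs of the deviations were opposite in 4 of 16 libraries, and r was 0.33 without the 2 libraries farthest from the median of GNAI1. In the POAH r was -0.47 (p = 0.129, adjusted p = 0.193; rho = -0.27, p = 0.295, adjusted p = 0.442; 24 libraries), with opposite signs in 14 of 24. That relation rested on Sample_160: r was -0.08 (permutation p = 0.793) without it, with the group means taken again. It was -0.15 without the 2 farthest libraries (Sample_160 and Sample_157), where the deviations were still from group means that held both. The values without the 2 farthest libraries in the nCPa and PVN also kept the group means of all libraries. In the PVN r was -0.12 (p = 0.571, adjusted p = 0.571; rho = -0.11, p = 0.623, adjusted p = 0.623; 23 libraries), with opposite signs in 11 of 23 and r = -0.05 without the 2 farthest. No nucleus passed the test. Without the libraries against their sex label r was 0.52 (permutation p = 0.103) in the nCPa, -0.57 (permutation p = 0.0475, not adjusted) in the POAH with Sample_160 included, and -0.08 (permutation p = 0.752) in the PVN. With the deviations also adjusted for total count and mitochondrial share, r was 0.077 (nCPa), -0.30 (POAH) and -0.21 (PVN).

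**Figure D3:**
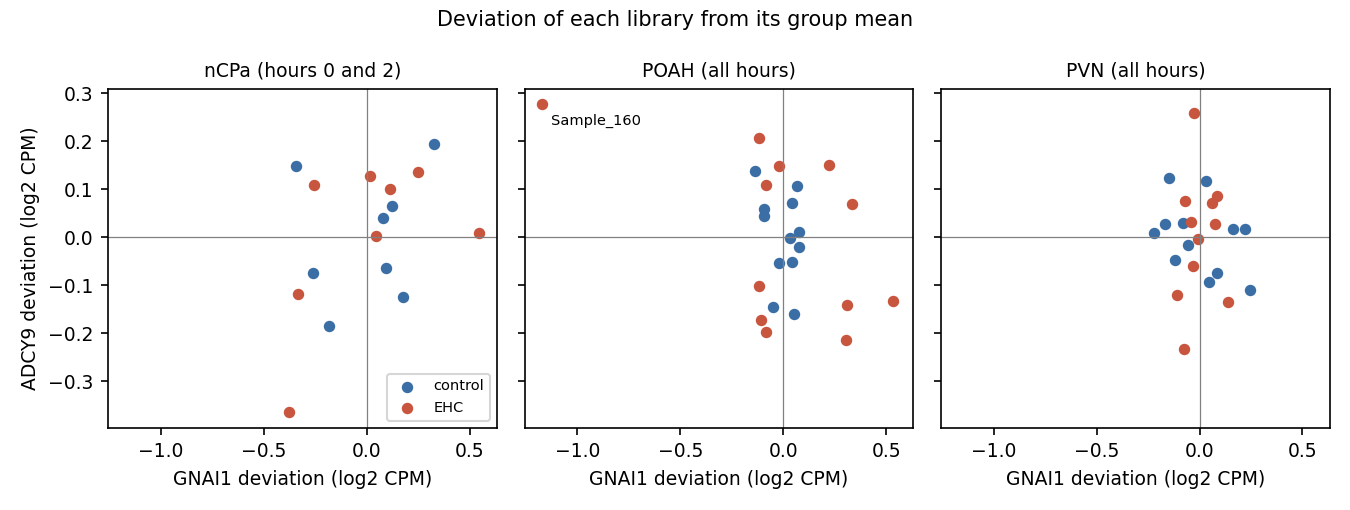
Deviation of each library from its group mean in log2 CPM, GNAI1 on the x axis and ADCY9 on the y axis, for the nCPa (16 libraries), POAH (24) and PVN (23); blue is control and red EHC. Sample_160 stands alone at the upper left of the POAH panel, and r is 0.42, -0.47 and -0.12 in the 3 panels.

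The log2 ratio of GNAI1 to ADCY9 counts within a library does not depend on the library's scaling. It was -0.88, -1.41, -1.57 and -1.67 in the EHC nCPa libraries at hour 12, and -1.72 in Sample_160. In the other 66 libraries it ran from -0.30 to 0.91. The 4 control nCPa libraries at hour 12 were at -0.0057, 0.50, 0.59 and 0.91, the last being the highest of all. By group mean the ratio was 0.50 in control nCPa at hour 12, the highest, and -1.38 in EHC nCPa at hour 12, the lowest, and the rule that chose the genes fixes the direction between these groups. The next lowest mean, -0.27 in EHC POAH at hour 12, held Sample_160, and the other 3 libraries of that group were at 0, 0.25 and 0.40. The counts of each gene also depend on its transcript length, so the ratio is read only between libraries, and it does not say which of the genes changed.

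**Figure D4:**
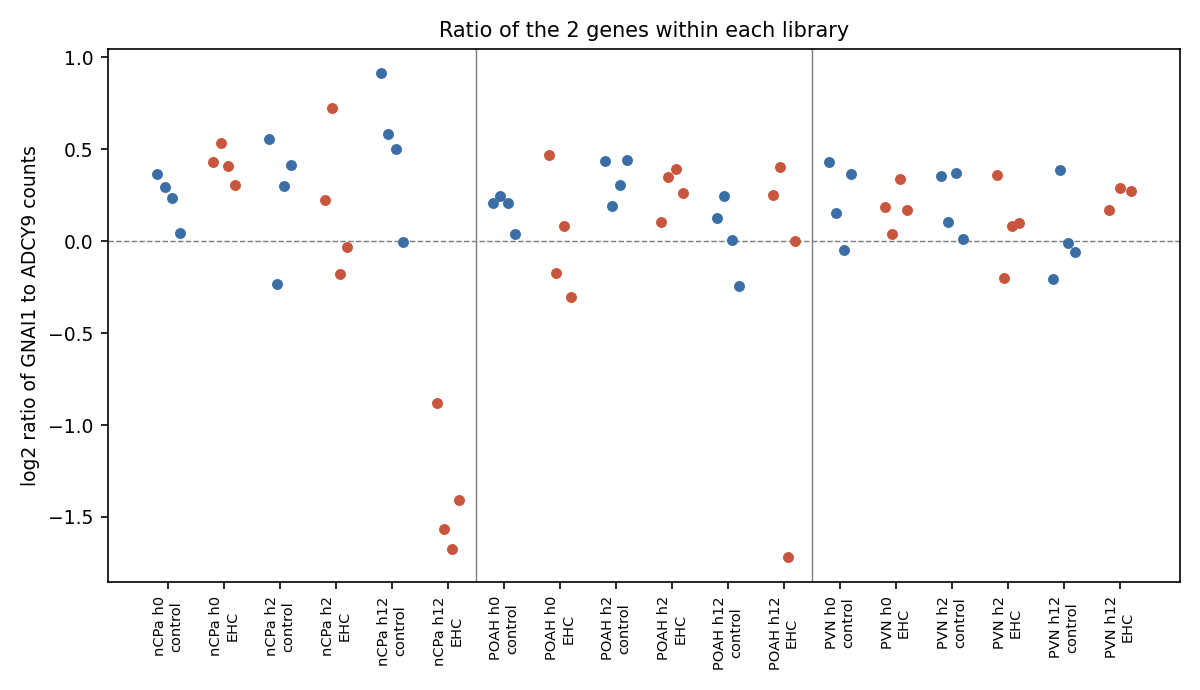
Log2 ratio of GNAI1 to ADCY9 counts (y axis) in each library (points; blue control, red EHC) by nucleus, hour and treatment; the dashed line marks equal counts. The EHC nCPa libraries at hour 12 sit between -1.67 and -0.88 and 1 EHC POAH library at -1.72, and all others between -0.30 and 0.91.

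Across all 71 libraries, r of log2 CPM between GNAI1 and ADCY9 was -0.35. Of the other genes, 1.72% had a lower r with GNAI1 and 3.98% with ADCY9. The nCPa at hour 12, where the genes were chosen as lower and higher, is included, so that r and its rank were partly fixed. On deviations from group means r was -0.14, and 18.6% of genes had a lower r with GNAI1 and 30.6% with ADCY9. The r of log2 CPM was -0.12 over the 63 libraries without the nCPa at hour 12 and 0.14 over the 62 that also leave out Sample_160. These libraries share nuclei, chicks and groups, and the values are descriptions.

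The gene most like GNAI1 by r over the 71 libraries was RNF7 (ENSGALG00010023910), a RING protein of cullin-RING ubiquitin ligases, with r = 0.86, the highest of 20362 genes. RNF7 was 44.2 ± 13.4 CPM in EHC and 106.5 ± 13.6 CPM in control nCPa at hour 12 (SD, n = 4 each), and 50.5 CPM in Sample_160 against 94.8 to 117.2 CPM in the other 3 libraries of its group. Among genes with a symbol, SCG5, the chaperone of prohormone convertase 2, followed with 0.76, then PUDP, a phosphatase, with 0.72, PSMA2, a proteasome subunit, with 0.69, and CSNK1A1, a protein kinase, with 0.63. SCG5 was 57.7 CPM in Sample_160 and 137.2 to 270.1 CPM in the other 3 of its group. The gaps were smaller for PSMA2 (18.9 against 25.8 to 31.1 CPM) and CSNK1A1 (230.6 against 255.3 to 312.8 CPM). PUDP, at 23.6 CPM in Sample_160, lay within the 23.5 to 37.6 CPM of the other 3. The r that picked these genes included Sample_160. The lowest with a symbol were NUP214, a nuclear pore protein, at -0.56, CNOT4, an E3 ubiquitin ligase, at -0.53, and XPO7, an exportin, at -0.44. Symbols were at hand for 92 genes other than the member compared, nearly all from the study's lists for this series, so this likeness was partly fixed by the same comparison. Over the 62 libraries without the nCPa at hour 12 and Sample_160, r was 0.33 for RNF7, 0.25 for SCG5, 0.25 for PUDP, 0.24 for PSMA2 and 0.41 for CSNK1A1. For the lowest it was -0.11 for NUP214 and -0.21 for CNOT4, and XPO7 turned to 0.14.

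For ADCY9 the highest r was 0.68, with the unnamed gene ENSGALG00010022190 (0.51 over the 62 libraries). Among named genes r was 0.53 for TBC1D20, a Rab GTPase-activating protein, 0.48 for XPO6, an exportin, 0.42 for STK25, a protein kinase, 0.41 for RASL10B, a Ras-like GTPase, and 0.38 for VIPR1. The lowest were HNRNPH1, an RNA-binding protein, at -0.48, DPY19L1, a mannosyltransferase, at -0.42, and PSAT1, an enzyme of serine synthesis, at -0.40. Over the 62 libraries r was 0.35 for TBC1D20, 0.28 for XPO6, 0.33 for STK25, 0.42 for RASL10B and 0.36 for VIPR1. It was -0.11 for HNRNPH1, -0.27 for DPY19L1 and -0.33 for PSAT1. These r are across libraries that share chicks, with no test.

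A list of the pathway's genes was drawn up by symbol, with 5 inhibitory alpha subunits, 9 adenylyl cyclases and 11 receptors that couple to stimulatory G proteins, beside other subunits, phosphodiesterases and kinases. Only 3 could be matched to an ID in the files, which were GNAI1, ADCY9 and VIPR1, a receptor for vasoactive intestinal peptide that couples to stimulatory G proteins and raises cyclic AMP. The other inhibitory alpha subunits and adenylyl cyclases are not analysed here. VIPR1 was selected by the study in the PVN at hour 2, where it stood at 13.6 ± 2.47 CPM in controls and 40.8 ± 13.9 CPM in EHC chicks (SD, n = 4 each). Of the 24 other comparisons, 6 hold the EHC PVN libraries of hour 2 on which VIPR1 was selected, and 1 of these 6, nCPa against PVN, was past the threshold (log2 difference -0.54, in a comparison that called 13.2% of genes), which is given as a description. At hour 0 alone (0.0344% of genes called) the difference was -0.41 (SE 0.24, 95% interval -0.91 to 0.09, edgeR BH-adjusted p = 0.402). VIPR1 did not pass in the other 23.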

How the data were processed

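RNA of 71 punch samples was sequenced as stranded, ribosome-depleted libraries. Per the labels and the study's methods, the authors trimmed reads with Trimmomatic 0.39, aligned them to the broiler genome (GRCg7b) with HISAT2, used SAMtools 1.10 to keep reads with 1 alignment, took out duplicates (biobambam2) and counted reads per Ensembl gene with featureCounts. The deposited table holds raw read counts, as whole numbers, of 30108 genes in 71 libraries. Removing duplicates without molecular identifiers can compress the counts of abundant genes.

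Genes above 1 CPM in at least 4 libraries were kept (20363). Counts were scaled by TMM and fitted with edgeR 4.0.16 (R 4.3.3, quasi-likelihood) on the libraries of the groups compared, over all genes, with the labelled sex as a term. The threshold was a p of 0.1 after Benjamini-Hochberg (BH) adjustment. Standard errors are the size of the log2 fold change over the square root of F. Correlations used log2 CPM with a prior count of 2. Replicates were numbered in accession order and are different chicks within a group, as far as the study's methods say. Both fits and the correlation were tested on simulated data. Alternatives were DESeq2 1.42.0, its size factors, no filter, mitochondrial mRNAs left out, no sex term, each library left out, all libraries of a nucleus in 1 model, sets of 3 library numbers as a block between nuclei, and libraries against their sex label left out. Leaving out Sample_160 in pooled comparisons, hour 12 in the nCPa sex comparison, hour 2 for VIPR1 between nuclei and the libraries against their sex label in the correlations was chosen after seeing the data. Figures were drawn with matplotlib 3.10.9. The genes named are the 2 members, genes of the pathway list that could be matched, and the 5 genes with a symbol of highest and the 3 of lowest r with each member (the top gene ID also where unnamed). The members and lists were chosen with earlier results of these data known. Symbols came from the study's tables for 93 genes, and positions from RefSeq genes of the same symbol.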

Additional observations from a re-analysis of the deposited data

Results flagged for a closer look

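Within groups of 4 libraries, a library was singled out where its gap to the nearest other was too large a part of the group's range (Dixon's test at 95%). Over 51 such tests (log2 CPM of each gene and their log2 ratio in 17 groups) 8 libraries stood apart. Chance alone marks about 1 in 20 groups, and the 3 measures are not independent.

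GNAI1 was low in Sample_160 (EHC POAH, hour 12) at 5.81 log2 CPM and in Sample_172 (control POAH, hour 12) at 7.11. It was high in Sample_10 (EHC POAH, hour 0) at 7.47, and in Sample_149 (EHC nCPa, hour 12) at 6.46, which is still below every library outside its group except Sample_160. ADCY9 was low in Sample_72 (control PVN, hour 2) at 7.00, in Sample_30 (EHC PVN, hour 0) at 7.05 and in Sample_29 (EHC nCPa, hour 0) at 6.73, the lowest ADCY9 level of all libraries. The log2 ratio of GNAI1 to ADCY9 was low in Sample_40 (control POAH, hour 0) at 0.038.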

How the results depend on the processing

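In the comparison that chose the genes, GNAI1 kept its direction under every alternative, with a log2 fold change from -1.65 to -1.37 when each library was left out, and ADCY9 from 0.28 to 0.51. In the 24 tested comparisons neither gene passed under any alternative, DESeq2 included. Over all 25 comparisons, the log2 fold change changed sign in 22 of 456 alternatives. These were not only values near 0, since they held GNAI1 in the POAH at hour 12 (-0.18 in the main fit). Leaving out each library in turn gave EHC against control values of -0.13 to 0.058 for ADCY9 in the nCPa at hour 0, -0.18 to 0.19 for GNAI1 in the nCPa at hour 2, -0.12 to 0.017 for ADCY9 in the POAH at hour 2, -0.39 to 0.11 for GNAI1 and -0.094 to 0.12 for ADCY9 in the POAH at hour 12, and -0.015 to 0.11 for GNAI1 in the PVN at hour 0. Without the libraries against their sex label, GNAI1 in the nCPa at hour 2 was -0.18, ADCY9 over pooled PVN hours was -0.000295 and ADCY9 in the PVN against the POAH was 0.014. Without Sample_160 the last was 0.015, GNAI1 there was -0.00046, ADCY9 at hour 12 against hour 0 in the POAH was -0.034 and GNAI1 in female against male POAH was 0.023. In the PVN against the POAH, sets of library numbers as a block gave -0.0032 for GNAI1 and 0.019 for ADCY9, no filter gave 0.0083 for ADCY9, and leaving out mitochondrial mRNAs 0.0094. The r of the genes within POAH libraries was -0.56 (permutation p = 0.0497) with DESeq2 size factors and -0.57 (permutation p = 0.0475) without the libraries against their sex label, and in the PVN it was 0.00303 without mitochondrial mRNAs. The cause of these changes was not tested. Of 72 group means under other scalings 1 moved by more than its SD, ADCY9 in control PVN at hour 2, at 122.4 CPM with no normalization factor. No paired analysis was possible because the replicate label marks treatment and hour, so no label numbers pair the samples; the fits between nuclei with sets of library numbers as a block (3189, 155 and 2518 genes called for PVN against POAH, nCPa against POAH and nCPa against PVN, with 2034, 5 and 2687 unblocked) took 3 consecutive numbers for 1 chick, which no label states, and neither gene was called. In the set of Sample_70, Sample_71 and Sample_72 the female-limited genes were at 9.1, 1238 and 10.5 CPM, so 1 chick is doubtful for that set. A missed threshold does not show that values were equal.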
